A study of Mus musculus with 8 samples.

Results

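The mitochondrial ribosomal protein genes of the mouse encode the protein parts of the ribosome that works inside mitochondria. They were taken as every gene whose symbol in the array annotation reads Mrpl or Mrps, then a number and at most 1 further letter, on probe sets that name a single gene. This gave 74 of the 30701 genes measured, 46 with Mrpl symbols and 28 with Mrps symbols, each with 1 probe set. RefSeq lists 78 such symbols. Mrpl30, Mrpl53 and Mrps6 lie here only on probe sets shared with another gene, and Mrpl58 carries a different symbol in the annotation.

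Colon RNA was compared between Rag1-/- mice of the C57BL/6 strain injected with naïve T cells and killed when severely inflamed (3 arrays, called inflamed below) and Rag1-/- mice of the same strain injected with regulatory T cells, whose colons were not inflamed (5 arrays, called control below). Loss of Rag1, carried by both groups, leaves a mouse without mature T and B cells of its own, while its innate immune cells remain. Injection was at 10 weeks of age and tissue was taken 2 to 4 months later, per the labels, which also give ages of 4 to 5 months, so the ages do not match in full. The sampled region is uncertain, since the labels describe distal colon in one place and tissue from the whole length of the colon in another. The comparison addresses which transcripts of the mitochondrial translation machinery differ between severely inflamed and control colon.

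Mitochondria keep a small genome that encodes core subunits of the respiratory chain and ATP synthase, and a dedicated ribosome translates their messengers. Its RNAs are made inside the organelle, whereas all of its proteins are encoded in the nucleus, made in the cytosol and imported. Some of these proteins descend from bacterial ribosomal proteins and others have no bacterial relative. In the colon, differentiated epithelial cells draw much of their energy from butyrate oxidation in mitochondria.

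Promoters of these genes often hold motifs of factors known to drive nuclear genes for mitochondrial proteins, and 4 windows are shown for that reason. RefSeq promoters of build GRCm38.p6, 300 bases each with 250 before and 50 after the start, were found for 65 members (71 promoters) and not for the other 9, Mrpl54 among them. Each motif was sought on both strands, and no promoter held overlapping motifs. The NRF1 motif (GCGCA, any base, then GCGC) was in 12 of the 71 promoters (16.9%), against 4.6% of all 32851 promoters in the same table. The GABP motif CCGGAAG was in 24 (33.8%), against 8.86% of all promoters, and the YY1 motif AAGATGGC in 12 (16.9%), against 2.75%. At least 1 of the 3 motifs was in 40 promoters (56.3%), against 14.7% of all. The lines below give 150 bases, from 100 before to 50 after the start, on the plus strand, with motif matches in capitals. They cover a gene that fell (Mrpl52), the gene with the most negative difference (Mrpl34), a stalk protein gene whose groups had almost the same mean (Mrpl12) and a gene whose window holds both a GABP and a YY1 match (Mrps18a). A match is a description of the letters and not a binding site.
Mrpl52, chr14:54426809-54426958: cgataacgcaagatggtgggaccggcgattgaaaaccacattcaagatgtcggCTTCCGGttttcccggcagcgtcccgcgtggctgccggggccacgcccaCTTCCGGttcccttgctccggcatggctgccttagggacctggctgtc
Mrpl34, chr8:71464826-71464975: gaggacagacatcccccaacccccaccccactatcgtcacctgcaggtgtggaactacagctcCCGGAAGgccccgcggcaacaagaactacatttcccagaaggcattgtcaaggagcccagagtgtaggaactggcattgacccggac
Mrpl12, chr11:120484537-120484686: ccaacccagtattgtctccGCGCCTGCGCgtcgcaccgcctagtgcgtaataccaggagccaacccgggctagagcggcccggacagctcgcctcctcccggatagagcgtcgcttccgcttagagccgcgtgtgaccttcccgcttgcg
Mrps18a, chr17:46110904-46111053: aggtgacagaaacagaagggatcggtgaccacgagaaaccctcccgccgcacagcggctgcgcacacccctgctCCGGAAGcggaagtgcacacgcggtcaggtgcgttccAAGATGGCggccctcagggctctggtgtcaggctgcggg
Mrpl52 held 2 GABP matches on the minus strand, 47 bases upstream and 3 bases downstream of the start. Mrpl34 held a GABP match 37 bases upstream, and Mrpl12 an NRF1 match on the minus strand 81 bases upstream. In Mrps18a the GABP match lay 26 bases upstream and the YY1 match 12 bases downstream.

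Before the results, 2 arrays need naming. Over all transcript clusters, pairs of control arrays correlated at 0.994 to 0.996 (Pearson's r), pairs of inflamed arrays at 0.986 to 0.995 and pairs across the groups at 0.98 to 0.986. Inflamed replicate 2 stood apart, at 0.987 and 0.986 with inflamed replicates 1 and 3, and a fit that weights arrays gave it a weight of 0.174 where the others had 0.842 to 1.713. Control replicate 3 stood apart in the member genes themselves, as described below. Both groups held arrays with and without transcripts of the Y chromosome, so the sexes were mixed. Markers of colon epithelium were bright in both groups, Epcam averaging 12.23 ± 0.04 in inflamed and 12.24 ± 0.04 in control colon (log2 signal, SD, n = 3 and 5), and 0 of its 8 markers passed the test.

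Most mitochondrial ribosomal protein genes kept nearly the same signal in inflamed as in control colon. Mrpl54, a large subunit protein with no bacterial relative, rose 1.24-fold, and Mrpl52, another such protein, fell to 0.88 of its control signal. The other 72 did not pass the test. A gene is said to have risen or fallen where limma's p, adjusted by the Benjamini-Hochberg method over all 30701 genes, was under 0.05. By that rule 1 of 74 members rose, beside 8.06% of all genes, and 1 fell, beside 5.04%. Together these are 2.7% of the members, against 13.1% of all genes and 20.9% of the 15979 genes whose mean signal lay in the members' own range of 5.32 to 10.23. At an unadjusted p under 0.05 there were 19 of 74 members (14 positive and 5 negative differences, 25.7%), beside 28.5% of all genes and 41.3% of genes in the signal range. Inflamed and control arrays did not overlap for 9 members (12.2%), beside 21.2% of all genes and 31.4% in the signal range. The inflamed arrays lay above the control range for 6 of them, beside 12% of all genes, and below it for 3, beside 9.17%.

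The differences were small as well as rarely past the test. They ran from -0.40 (Mrpl34) to 0.36 (Mrps22) in log2 units, inflamed minus control, with a median of 0.03, against -0.01 over all genes. Their median size, sign aside, was 0.086, against 0.096 over all genes and 0.148 for genes in the same signal range. Their 90th percentile was 0.249, against 0.444 over all genes and 0.6 in that range. A difference of 2-fold or more was seen for 0 of 74 members, against 2.57% of all genes and 4.07% of genes in that range. The 95% interval of the difference lay within 0.5 log2 units of 0 for 71 of 74 members, and within 1 unit for all 74. Mrps22, Mrpl34 and Mrpl42 were the 3 whose interval passed 0.5. In the same signal range 11051 of 15979 genes had an interval within 0.5. The members' median standard error (SE) was 0.064, against 0.068 over all genes and 0.078 in their signal range. Values identical between arrays, described below, enter these sizes and SEs. In bulk tissue, fewer cells of a type and less RNA per cell cannot be told apart.

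**Figure D1:**
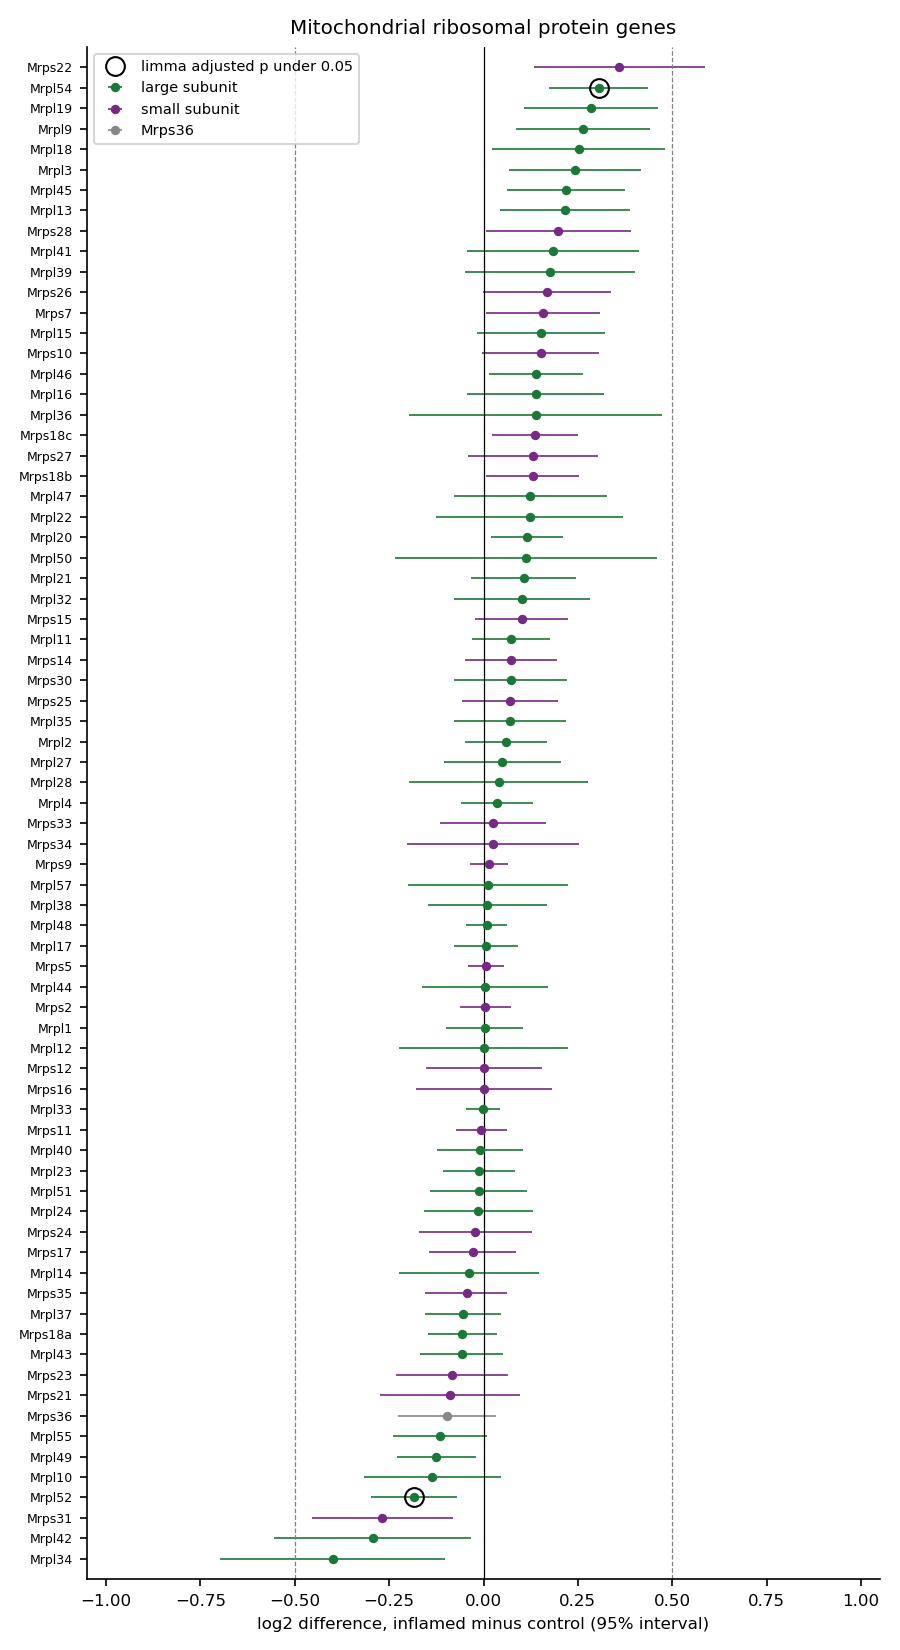
Difference in log2 signal, inflamed minus control, for each of the 74 mitochondrial ribosomal protein genes (points, with 95% intervals from limma), coloured by ribosomal subunit, with Mrps36 in grey. The 2 ringed genes, Mrpl54 and Mrpl52, passed the test, and all but 3 intervals lie between the dashed lines at -0.5 and 0.5.

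Mrpl54 stood at 7.62, 7.70 and 7.60 on the inflamed arrays, against 7.29, 7.44, 7.42, 7.28 and 7.23 on the control arrays (log2 signal). Every inflamed array was above every control array, and the inflamed arrays were close together. The difference was 0.30 ± 0.06 (SE, 95% interval 0.17 to 0.44, limma adjusted p = 0.0135). It stayed past the threshold in all 8 fits that left out 1 array, with adjusted p between 0.015 and 0.0443.

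Mrpl52 stood at 8.0, 7.95 and 8.10 on the inflamed arrays and at 8.15, 8.19, 8.30, 8.22 and 8.15 on the control arrays. All inflamed arrays were below all control arrays, by as little as 0.05 for inflamed replicate 3. The difference was -0.18 ± 0.05 (95% interval -0.30 to -0.07, limma adjusted p = 0.0488). That call is at the edge of the threshold, since only 1 of the 8 fits leaving out an array kept it (adjusted p 0.0332 to 0.144).

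Several members had differences of similar or larger size, with inflamed arrays further apart, and missed the threshold. Mrpl18, a protein that sits in the central protuberance of the large subunit in human structures, and Mrpl34, a relative of a bacterial large subunit protein, had among the widest spreads on the inflamed arrays. The others in this and the next paragraph, Mrps22, Mrpl19, Mrpl9, Mrpl45, Mrpl3, Mrpl13, Mrpl55 and Mrps31, are named because of their values. Mrps22, a small subunit protein with no bacterial relative that is mutated in human mitochondrial disease, stood at 7.57, 7.83 and 7.43 on inflamed arrays, against 7.23, 7.27, 7.37, 7.28 and 7.10 on control arrays. The groups did not overlap, and the difference was 0.36 ± 0.10 (limma adjusted p = 0.0514). Mrpl19, a relative of bacterial L19, stood at 7.61, 7.83 and 7.54 on inflamed arrays and at 7.48, 7.27, 7.42, 7.38 and 7.31 on control arrays. These groups too did not overlap, with a difference of 0.28 ± 0.08 (limma adjusted p = 0.0509). Mrpl9 had 7.87, 7.65 and 7.55 in inflamed colon, against 7.37, 7.38, 7.54, 7.38 and 7.44 in control colon, a difference of 0.26 ± 0.08 (limma adjusted p = 0.0628), with inflamed replicate 3 just above control replicate 3. Mrpl18 had 8.05, 8.45 and 8.03 in inflamed colon and 7.99, 7.91, 7.95, 7.93 and 7.84 in control colon, a difference of 0.25 ± 0.10 (limma adjusted p = 0.141). Its inflamed replicate 2 was far above the rest. Mrpl45, known in humans to hold the mitoribosome to the inner membrane, had a difference of 0.22 ± 0.07 and also lay above the control range. Mrpl3 and Mrpl13 had differences of 0.24 ± 0.08 and 0.22 ± 0.07 with overlapping groups.

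On the negative side, Mrpl34 stood at 6.28, 6.87 and 6.62 on inflamed arrays, against 6.92, 6.92, 7.17, 6.96 and 6.96 on control arrays. All inflamed arrays were lower, inflamed replicate 2 only just. The difference was -0.40 ± 0.13 (limma adjusted p = 0.0861), and it depended on the inflamed arrays. Without inflamed replicate 2 it was -0.54 (limma adjusted p = 0.0241), and without inflamed replicate 1 it was -0.24 (limma adjusted p = 0.185). Mrpl42 had 9.99, 10.26 and 9.88 in inflamed colon and 10.22, 10.26, 10.58, 10.39 and 10.25 in control colon, a difference of -0.29 ± 0.11 with inflamed replicate 2 inside the control range (limma adjusted p = 0.134). Mrps31 had 7.80, 8.03 and 7.73 in inflamed colon and 8.15, 8.05, 8.25, 8.13 and 8.02 in control colon. Here too inflamed replicate 2 alone overlapped the controls, and the difference was -0.27 ± 0.08 (limma adjusted p = 0.0687). Mrpl55 was below the control range by a small margin, with 6.87, 6.87 and 6.91 in inflamed colon against 6.95, 6.95, 7.15, 7.0 and 6.95 in control colon.

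**Figure D2:**
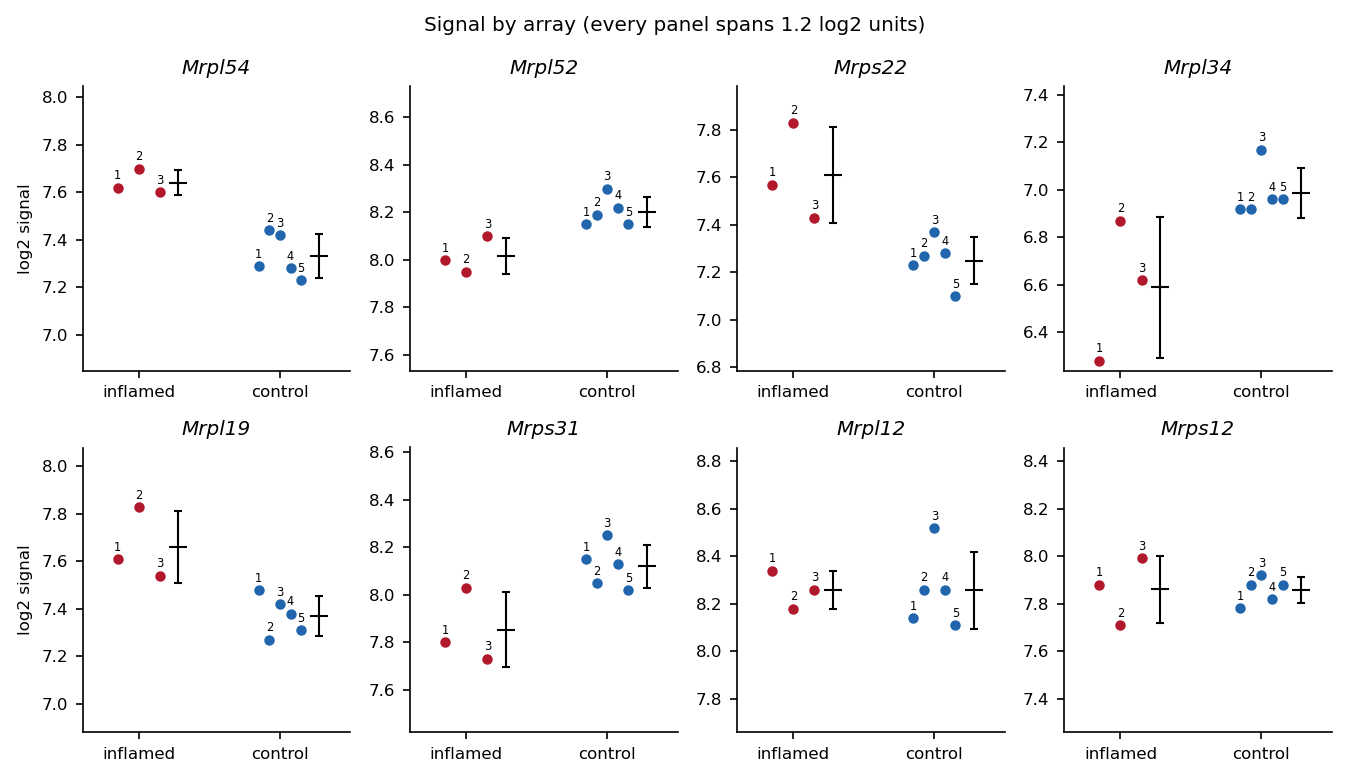
Log2 signal on each array (points, numbered by replicate; inflamed in red, control in blue) with group mean and SD beside them, for 8 member genes; all panels span the same number of log2 units from different starting points. Inflamed and control arrays do not overlap for Mrpl54, Mrpl52, Mrps22, Mrpl34 and Mrpl19, while those of Mrps31, Mrpl12 and Mrps12 do.

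Sorted by the subunit they occupy in human structures, 48 members belong to the large subunit and 25 to the small subunit. Mrps30 and Mrps18a are counted with the large subunit despite their symbols. Mrps36 is a component of the alpha-ketoglutarate dehydrogenase complex and was counted with neither. The large subunit genes had a median difference of 0.045, with 1 risen and 1 fallen. The small subunit genes had a median of 0.024, and 0 of 25 passed the test (6 at an unadjusted p under 0.05). For the split by ancestry, a gene was counted with a bacterial relative where its protein takes the place of a bacterial one. Mrps18c was therefore counted so, while Mrps18a and Mrps18b, which resemble bacterial S18 but sit elsewhere, were counted without. In the large subunit the median was 0.07 for the 29 genes with a bacterial relative and 0.008 for the 19 without. In the small subunit it was 0.007 for 15 genes with a bacterial relative and 0.048 for 10 without. Both calls, Mrpl54 and Mrpl52, fell among the large subunit genes without a bacterial relative.

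Functional sites of the large subunit gave no call. The grouping by site, here and in the small subunit, was made after the values were seen. It does not list every protein of a site, so a sign shared within a group describes only the genes named. At the stalk, which brings translation factors to the ribosome, Mrpl12 stood at 8.34, 8.18 and 8.26 on inflamed arrays and at 8.14, 8.26, 8.52, 8.26 and 8.11 on control arrays. Mrpl12, which is also known to bind mitochondrial RNA polymerase, thus had fully overlapping groups and a difference of 0.00 ± 0.10 (95% interval -0.22 to 0.23). Mrpl11 and Mrpl10, at the base of the stalk, had differences of 0.07 ± 0.04 and -0.14 ± 0.08, with overlapping groups. The 5 members grouped here around the peptidyl transferase centre, where peptide bonds form, were Mrpl2, Mrpl3, Mrpl4, Mrpl16 and Mrpl27. Mrpl4 was counted here and not at the exit tunnel. All 5 had positive differences, of 0.04 to 0.24, and 0 passed the test. At the exit tunnel 4 members (Mrpl22, Mrpl23, Mrpl24 and Mrpl45) had a median of 0.055, and at the central protuberance 5 members (Mrpl18, Mrpl38, Mrpl40, Mrpl46 and Mrpl48) a median of 0.01. Mrpl41, a large subunit protein without bacterial relative, had 6.18, 6.14 and 6.55 in inflamed colon and 6.01, 6.14, 6.21, 6.12 and 6.04 in control colon. Its difference of 0.18 ± 0.10 had inflamed replicate 3 alone outside the control range. Mrps30 had a difference of 0.07 ± 0.06.

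In the small subunit, Mrps12, a relative of the bacterial protein S12 that lines the decoding centre, stood at 7.88, 7.71 and 7.99 on inflamed arrays, against 7.78, 7.88, 7.92, 7.82 and 7.88 on control arrays. The groups overlapped around the same mean, with a difference of 0.00 ± 0.07. Mrps16 was as close to 0, at 0.00 ± 0.08. The 4 genes grouped here under the head (Mrps7, Mrps9, Mrps10 and Mrps14), not a full list of its proteins, all had positive differences. Their median was 0.112, and 0 passed the test. At the messenger entrance 2 genes (Mrps5 and Mrps24) had a median of -0.01, and on the platform 3 genes (Mrps11, Mrps18c and Mrps21) a median of -0.01. The differences of the 3 Mrps18 genes, whose proteins occupy different places in the mitoribosome, did not share a sign. Mrps18c had 6.94, 7.01 and 6.92 in inflamed colon, against 6.84, 6.77, 6.94, 6.77 and 6.77 in control colon, a difference of 0.14 ± 0.05 with control replicate 3 inside the inflamed range (limma adjusted p = 0.113). Mrps18b had a difference of 0.13 ± 0.05 (limma adjusted p = 0.156). Mrps18a had 6.52, 6.52 and 6.37 in inflamed colon and 6.52 on 4 control arrays with 6.55 on the other, a difference of -0.06 ± 0.04. Mrps36 had a difference of -0.10 ± 0.06.

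Signals of different genes come from different probes and cannot be set against each other, but neither call lay at an end of the members' signal range. The 3 members with the lowest signal were Mrpl33, Mrpl44 and Mrps11. Mrpl33 read 5.32 on all 3 inflamed arrays and 5.32 or 5.33 on all control arrays. Mrpl44 and Mrps11 had differences of 0.00 ± 0.07 and -0.01 ± 0.03. Of the 4 with the highest signal, Mrpl42 is given above, and Mrps24, Mrps15 and Mrpl39 had differences of -0.02 ± 0.06, 0.10 ± 0.05 and 0.18 ± 0.10.

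Across arrays, the members' median varied more among control mice than it differed between the groups. Each member's signal was set against its control mean. The median over the 74 members was 0.04, 0.04 and 0.02 on inflamed replicates 1 to 3, with 51, 46 and 46 members above the control mean. On control replicates 1 to 5 it was 0.00, -0.01, 0.07, -0.01 and -0.05, with 37, 33, 65, 31 and 13 members above it. Control replicate 3 was thus higher than all inflamed arrays in this measure, and control replicate 5 the lowest array of all. Control replicate 3 was also high for the 74 measured genes of the respiratory chain and ATP synthase, with a median of 0.13 and 67 genes above the control mean. This was not confined to mitochondrial genes. For cytosolic ribosomal proteins that array had a median of 0.07, with 27 of 32 genes above the control mean. For proliferation genes it had -0.05, with 4 of 14 above. Whether its state is biological or technical was not tested. Without control replicate 3, Mrpl54, Mrpl22 and Mrps18c were called higher and none lower, where 9.65% of all genes were called. The members' median difference in that fit was 0.063, against -0.011 over all genes.

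**Figure D3:**
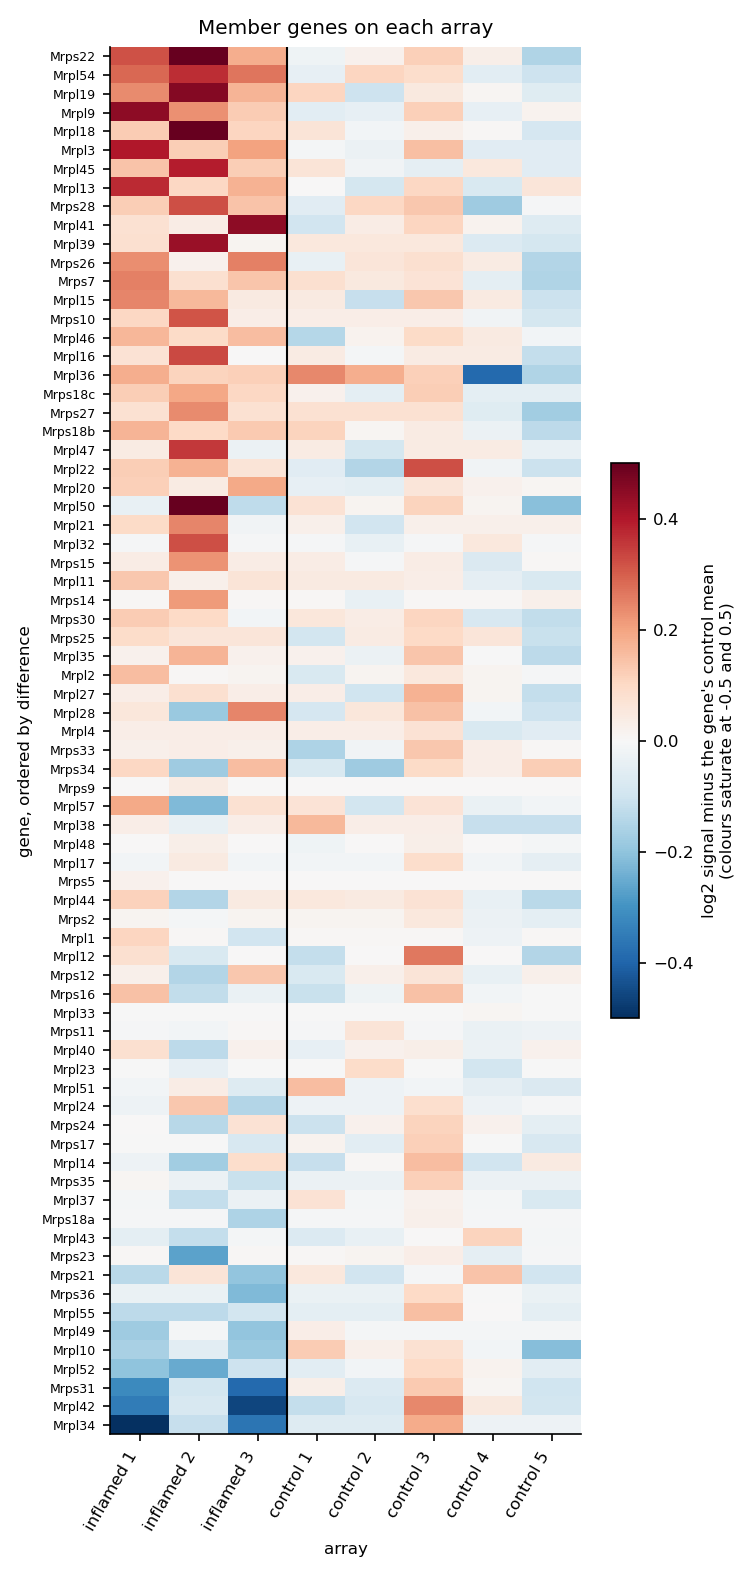
Log2 signal minus the gene's control mean (colour, saturating at -0.5 and 0.5) for the 74 member genes (vertical, ordered by difference) on each array (horizontal, inflamed left of the line). Most of the column of control replicate 3 is above the control mean (65 of 74 genes), and inflamed replicate 2 holds many of the most deviating cells of the inflamed columns.

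Among the inflamed arrays, replicate 2 was the farthest from the group mean for 47 of 74 members (63.5%), beside 54.2% of all genes. The widest inflamed spread was that of Mrpl50, with 8.29, 8.83 and 8.20 (SD 0.343), against 8.40, 8.34, 8.44, 8.34 and 8.12 in control colon, and its overlapping groups differed by 0.11 ± 0.15. Mrpl36, a relative of bacterial L36, had the widest control spread, from 6.22 to 6.85 (SD 0.262) around inflamed values of 6.79, 6.72 and 6.73. Mrpl22 had the next widest (SD 0.188), with control replicate 3 at 7.52 and the other controls at 7.05 to 7.18, against 7.32, 7.37 and 7.26 in inflamed colon. Leaving out 1 array at a time, 50 members kept the sign of their difference in every fit (36 positive and 14 negative). The 24 that changed sign had differences of at most 0.113 in size.

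Some member values were identical between mice. Their part in the small spread of these genes was not tested. In 33 of 74 members (44.6%) at least 3 of the 8 arrays carried exactly the same deposited value, beside 39.7% of all genes. In Mrps9, 7 arrays shared 7.66. These 33 members had a median difference of 0.054 in size and a median SE of 0.052, with 0 called. The other 41 members had a median size of 0.13, a median SE of 0.075 and both calls. The same split was not computed for all genes or for genes in the signal range. The smaller sizes of the members therefore cannot be read as particular to them.

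The partners of these proteins gave few calls as well. Of 6 further mitoribosomal subunit genes with other symbols 5 were measured, and 0 passed the test. Chchd1 and Ptcd3, both small subunit proteins, had differences of 0.40 ± 0.18 and 0.17 ± 0.07. Among 26 genes of mitoribosome assembly and ribosomal RNA modification, only C1qbp, a matrix protein needed for mitochondrial translation, rose, and 0 fell. C1qbp averaged 8.40 ± 0.13 in inflamed colon and 8.15 ± 0.05 in control colon (SD, n = 3 and 5), a difference of 0.24 ± 0.06 (limma adjusted p = 0.0407), and the list's median was -0.03. That call held in only 1 of the 8 fits leaving out an array (adjusted p 0.035 to 0.0919). Mpv17l2, an assembly factor, had a difference of -0.29 ± 0.14. Of 15 mitochondrial translation factors 0 passed, with a median of 0.03, Oxa1l, which inserts new proteins into the inner membrane, at -0.31 ± 0.10 and the elongation factor Gfm1 at 0.20 ± 0.08. Of 19 mitochondrial aminoacyl-tRNA synthetases and related genes 0 passed, with a median of -0.06, Yars2 at 0.38 and Rars2 at -0.25.

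In the group that copies and transcribes mitochondrial DNA, 1 of 11 genes fell and 0 rose. Polg2, the accessory subunit of the mitochondrial DNA polymerase, stood at 5.97, 5.93 and 5.83 in inflamed colon, below all controls (6.31 ± 0.11), with a difference of -0.40 ± 0.07 (limma adjusted p = 0.0101). Mterf1b, a relative of a mitochondrial transcription termination factor, had a difference of 0.17 ± 0.07. The mitochondrially encoded 12S ribosomal RNA, mt-Rnr1, onto which the small subunit proteins assemble, had a difference of -0.06 and did not pass, and mt-Tk, a transfer RNA gene, one of 0.31. Without control replicate 1, which was at 7.76 where the other controls were at 8.74 to 8.99, that of mt-Tk was 0.09.

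Among 9 regulators of mitochondrial biogenesis, 1 rose and 2 fell. At an unadjusted p under 0.05 there were 6 (4 positive and 2 negative differences), beside 28.5% of all genes. Ppargc1a, the coactivator of the NRF1 and GABP programme, stood at 7.25, 8.47 and 6.60 on inflamed arrays, against a control mean of 9.41 ± 0.17. All inflamed arrays were below all controls, but far apart, and the difference was -1.97 ± 0.37 (limma adjusted p = 0.0152, and 0.0611 without inflamed replicate 1). Its relative Ppargc1b fell by 0.50 ± 0.09 (limma adjusted p = 0.0134), and Myc rose by 0.52 ± 0.10 (limma adjusted p = 0.0161). The genes of the factors themselves, named here for their motifs, did not pass, with differences of 0.04 ± 0.03 for Nrf1, 0.195 ± 0.08 for Gabpa and 0.02 ± 0.03 for Yy1. Gabpb1 and Gabpb2, which encode the other subunits of GABP, had 0.095 ± 0.08 and 0.13 ± 0.05 and did not pass. All inflamed arrays lay above all controls for Nrf1 and Gabpb2, but not for Gabpa, Gabpb1 and Yy1. The differences of members with and without a motif of these factors are given side by side. The median was 0.01 for the 12 members with an NRF1 match and 0.03 for the 53 without. For GABP it was 0.01 for 24 members with a match and 0.04 for 41 without, and for YY1 it was -0.002 for 12 with a match and 0.03 for 53 without. Mrpl52 was the only called member with a promoter window.

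For the organelle's other protein groups no test set 1 list against another, and the counts are given beside those of its ribosome. Of 23 mitochondrial protein import genes, 8 rose and 0 fell, with a median of 0.18. Timm8a1, a chaperone of the space between the membranes, rose by 0.68 ± 0.11, averaging 9.13 ± 0.13 in inflamed and 8.45 ± 0.19 in control colon (limma adjusted p = 0.00934). A further probe set of Timm8a1, an X-linked gene, gave 0.39 (limma adjusted p = 0.032), and with a block for sex the difference was 0.62. Pmpca, a subunit of the peptidase that removes import signals, rose by 0.52 ± 0.06 (limma adjusted p = 0.00196). Tomm20, a receptor of the outer membrane, rose by 0.46 ± 0.07 (limma adjusted p = 0.00531). Of the 74 measured genes of the respiratory chain and ATP synthase, 0 rose and 4 fell, with a median of -0.09 and 16 positive differences, where the 74 ribosomal protein genes had 51. Over all genes 13747 of 30701 differences were positive. Signs within a list were not independent. On control replicate 5, 13 ribosomal protein and 14 respiratory chain and ATP synthase genes lay above the control mean. On control replicate 3 it was 65 and 67.

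Those 4 falls were spread over complex I and the ATP synthase. In complex I, 2 of 36 genes fell, Ndufa3 by 0.40 ± 0.08 and Ndufv3 by 0.30 ± 0.07. Leaving out 1 array at a time, Ndufa3 kept its call in 7 of 8 fits, losing it without inflamed replicate 1 (adjusted p = 0.0579 by limma), and Ndufv3 in 1 of 8 (adjusted p up to 0.114). In the ATP synthase 2 of 14 fell, Atp5g2, a subunit of the membrane ring, by 0.61 ± 0.09 and Atp5j2 by 0.25 ± 0.04. In complexes II, III and IV, 0 of 4, 0 of 9 and 0 of 11 passed, with medians of -0.15, -0.15 and -0.11. Their largest differences were those of Sdhb (-0.29) and Sdhc (-0.17), Uqcr10 (-0.37) and Uqcrc1 (-0.22), and Cox7a1 (-0.86) and Cox6a1 (-0.25). Of 12 genes of the TCA cycle 2 fell, Ogdh by 0.45 ± 0.06 and Suclg2 by 0.36 ± 0.09, and the median was -0.09. Ogdh kept its call in all 8 fits leaving out an array and Suclg2 in 1 of 8 (adjusted p up to 0.147). Inflamed replicate 2 lay close to the controls for the respiratory chain and ATP synthase, with a per-array median of 0.00, against -0.10 and -0.15 on inflamed replicates 1 and 3.

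**Figure D4:**
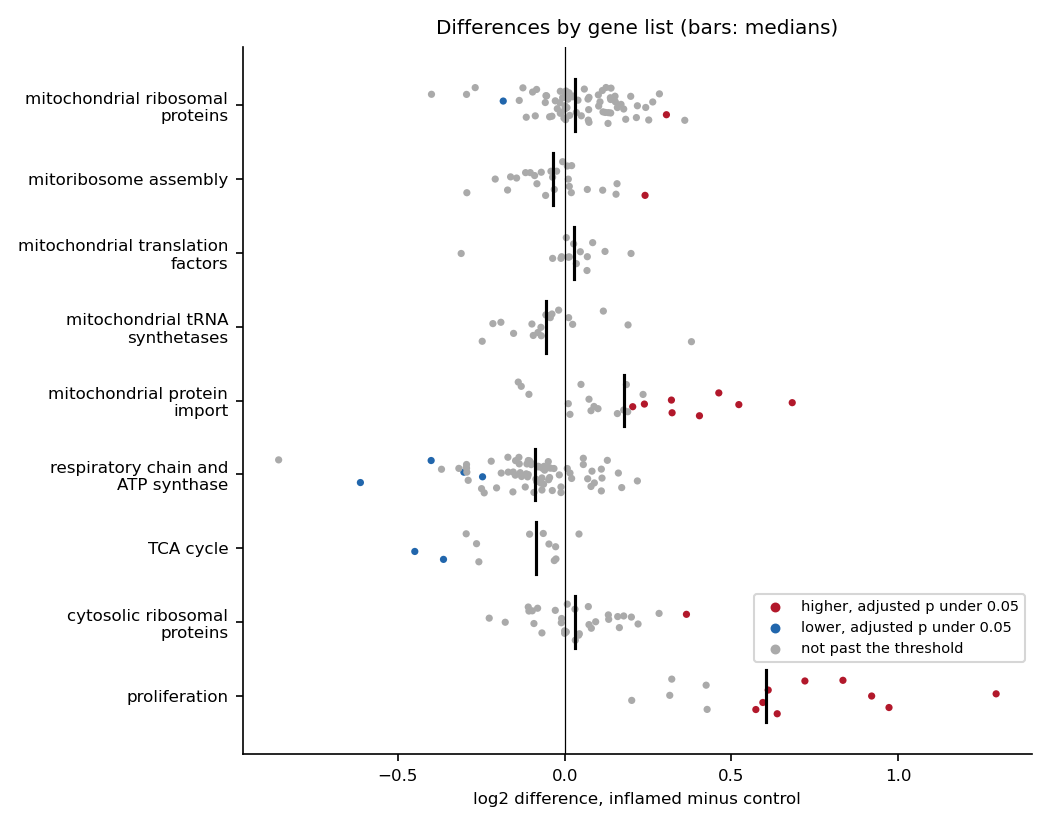
Difference in log2 signal, inflamed minus control, for every measured gene (points) of the mitochondrial ribosomal protein genes and 8 other lists, with list medians as bars. Coloured genes passed the limma test: 1 higher and 1 lower among the 74 ribosomal protein genes, 8 higher among the import genes, 4 lower among the respiratory chain and ATP synthase genes, and 9 higher among the proliferation genes.

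The cytosolic ribosome, which makes the mitoribosomal proteins themselves, was measured for 32 of 76 listed genes. Rps9 alone rose, by 0.37 ± 0.06 (limma adjusted p = 0.0112), 0 fell, and the median was 0.03, as for the mitochondrial ribosomal protein genes. Rpsa had a difference of 0.28. Of 14 proliferation genes 9 rose and 0 fell, with a median of 0.60. Rrm2 and Rrm1, subunits of ribonucleotide reductase, rose by 1.29 ± 0.17 and 0.97 ± 0.14, and Top2a, the topoisomerase of dividing cells, by 0.92 ± 0.14.

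Markers of several cell types moved alongside these values, and their part in them was not tested. Of 7 leukocyte, 6 T cell and 6 macrophage markers, all rose, with median differences of 1.84, 1.59 and 1.41, and of 6 neutrophil markers 4 rose (median 1.94). Averaged over the leukocyte markers, log2 signal was 7.82 to 8.08 on inflamed arrays and 6.01 to 6.18 on control arrays, and over the T cell markers 6.55 to 7.42 on inflamed and 5.19 to 5.35 on control arrays. Of 8 markers of mature colonocytes, which are rich in mitochondria, 4 fell and 1 rose (median -0.47), and of 6 goblet cell markers 2 fell (median -0.37). Their averages were 10.94 to 11.57 on inflamed and 11.71 to 12.01 on control arrays for colonocytes, and for goblet cells 11.15 to 11.51 on inflamed and 11.65 to 12 on control arrays. Of 7 smooth muscle markers 6 fell (median -0.72), while 0 of 5 fibroblast and 0 of 5 endothelial markers passed (medians 0.39 and 0.04). Against shifts of that size, all 74 mitochondrial ribosomal protein genes differed by at most 0.40 log2 units.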

How the data were processed

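RNA from 8 colons was labelled with biotin and hybridised to Affymetrix whole-transcript arrays, 1 array per sample. The deposited values are log2 signals per probe set, which the authors made with RMA in Affymetrix Expression Console, per the submitters' processing notes, with no version stated. The median signal per array ranged from 4.809 to 4.91, as normalized arrays do. At low signals RMA values are compressed, which understates fold changes there. The files give no counts or detection calls, and the number of arrays limits the precision. Control probe sets (6732 of 72688) were left out. The annotation covered 32750 probe sets, and 1492 of these named more than 1 gene and were not used. No symbol was given for 33206 transcript clusters. Symbols came from the platform annotation, updated through RefSeq (GRCm38.p6). The 442 genes with several probe sets were represented by the brightest.

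Differences, inflamed minus control, were fitted with limma 3.58.1 in R 4.3.3 (lmFit, eBayes, no covariate), with Benjamini-Hochberg adjustment over 30701 genes. Values after a mean are SD and after a difference SE, with n = 3 inflamed and 5 control arrays. Groups came from the labels, which call the replicates biological but name no animals, so p-values measure the spread between these samples. Scripts were tested on simulated data. The members and all gene lists were chosen with earlier results of these data known. Named members were those past the threshold, those at the ends of signal, difference near 0 and spread, and a fixed set. The fixed set held genes around the stalk and the decoding centre, the Mrps18 genes, Mrpl41 and Mrps30. From each list up to 3 genes past the threshold with the largest differences were named, or otherwise 2. Others named are said to be chosen for their values. Alternatives covered scaling, array weights, low signals, variance models, probe set choice, blocks for sex and replicate number, and leaving out each array.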

Additional observations from a re-analysis of the deposited data

Results flagged for a closer look

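In 17 of 74 members and 5 of 35 other named genes, the most extreme control array lay far from the other 4. The measure is its gap to the nearest control, divided by the range of all 5 controls, with 0.71 as the 95% critical value. About 1 gene in 20 passes by chance where values are normally distributed, which values identical between arrays are not. The share over all genes was not computed, so the count cannot be read as particular to the members. Control replicate 3 was the extreme array in 10 of the 17 members. It was the highest control for Mrpl17 (0.798), Mrpl22 (0.731), Mrpl24 (0.799), Mrpl3 (0.768), Mrpl34 (0.848), Mrpl48 (0.753), Mrpl55 (0.739), Mrps18a (1.0), Mrps35 (1.0) and Mrps36 (0.743), and also for Sdhb (0.725), Cox7a1 (0.801) and Rps9 (0.772). Control replicate 4 was lowest for Mrpl1 (0.878) and Mrps5 (1.0) and highest for Mrpl33 (0.89). Control replicate 1 was highest for Mrpl49 (1.0) and Mrpl51 (0.755) and lowest for mt-Tk (0.794). Control replicate 2 was lowest for Mrpl21 (0.979) and highest for Mrps11 (0.774), and control replicate 5 was lowest for Mterf1b (0.807). Ratios near 1 arose where the other 4 controls carried almost the same value. For Mrps5 the whole control range was below 0.01 log2 units, and for Mrpl33 control replicate 4 was at 5.33 with the others at 5.32. In Mrpl22 the gap was wider, with control replicate 3 at 7.52 and the nearest control at 7.18. In Mrps35 that array was at 6.94 and the other controls at 6.79. The cause was not tested.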

How the results depend on the processing

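Mrpl54 was called higher in all 8 fits without 1 array and in 11 of 12 other alternatives planned, the exception being the replicate block. Mrpl52 kept its call in 1 of 8 and 6 of 12. The counts of members called moved with the settings, from 0 to 13 of 74, while the members' median difference stayed between 0.005 and 0.067. With array 75th percentiles aligned 5 members were higher and 0 lower (14.1% of all genes called), with array medians aligned 6 and 0 (14.3%), with array weights 8 and 5 (18.5%), with dim genes left out 4 and 2 (24.0%), with quantile normalization 3 and 2 (14.1%), and with a sex block 2 and 0 (10.7%). With a floor on low values, and with an intensity trend and robust variances, 1 was higher and 0 were lower (10.2% and 12.7%). The highest share of members called was 13 of 74, with array weights. That share was close to the 18.5% of all genes called in the same fit. The lower share of members seen in the main fit was thus not seen there. Across fits leaving out 1 array, 1 to 4 members were higher and 0 to 3 lower, and 2510 to 4575 genes were called in all. The lowest count of all genes came without inflamed replicate 1. Without inflamed replicate 2 the called members were Mrpl20, Mrpl34, Mrpl49, Mrpl54 and Mrps31, and without inflamed replicate 3 they were Mrpl19, Mrpl52, Mrpl54, Mrpl9 and Mrps22. A replicate block, taking 1 to 3 as pairs, called 0 members higher, 0 lower and 0 of all genes (4 members and 4918 genes at an unadjusted p under 0.05). Deviations of samples with the same number correlated at -0.285, -0.053 and 0.069. These values are too few to decide whether the numbers pair the mice, and the labels do not state it. Within the 4 arrays with Y-linked transcripts, a setting chosen after seeing the data, limma called 0 members higher, 0 lower and 0 of all genes (6 members and 4596 genes unadjusted). The replicate block compares only arrays numbered 1 to 3 in both groups, and the Y-linked setting holds only 4 arrays. With so few, 0 calls cannot show that differences are absent. The cause of the changes between settings was not tested. For the single genes named, 1132 of 1237 comparisons with an alternative kept their side of the threshold. A call was lost in 83 and gained in 22, and 0 of the called differences changed sign. Only called genes could lose a call, and most of the genes named were not called. The pooled count therefore does not measure how stable the calls are. Taking every probe set, the mean over probe sets or symbols as annotated left 1 higher and 1 lower.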

Other observations

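Probe sets that hold a mitochondrial ribosomal protein gene together with another gene, or a pseudogene, were not counted among the members. The probe set shared by Slc5a3 and Mrps6 averaged 7.77 ± 0.28 in inflamed colon and 8.01 ± 0.12 in control colon (log2 signal, SD, n = 3 and 5), with overlapping groups. That of Ccdc142 and Mrpl53 averaged 6.51 ± 0.06 in inflamed and 6.56 ± 0.04 in control colon, and that of Mrpl30 and Gm6238 6.85 ± 0.07 in inflamed and 6.86 ± 0.08 in control colon. A second probe set with Mrps18b, shared with Gm16279, averaged 5.45 ± 0.03 in inflamed and 5.49 ± 0.04 in control colon, where Mrps18b on its own probe set had a difference of 0.13. The pseudogenes Mrpl23-ps1, Mrpl48-ps, Mrps36-ps1 and Mrps36-ps2 had inflamed means of 8.0, 7.85, 7.64 and 6.81, against control means of 7.93, 7.86, 7.76 and 6.86. Mrpl58, whose probe set is annotated with another symbol, averaged 7.87 ± 0.03 in inflamed and 7.86 ± 0.01 in control colon.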
